A study of Mus musculus with 6 samples.

Results

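The matrix metalloproteinases (MMPs), the ADAMTS proteases, the ADAMTS-like proteins and the tissue inhibitors of metalloproteinases (TIMPs) were followed from postnatal day 3 (P3) to the adult in the sensory epithelium of the mouse cochlea. Members were all probe sets that the array annotation assigned to 1 gene only and whose symbol began with Mmp, Adamts, Adamtsl or Timp and a number. They were chosen by name and not by level, and gave 78 of the 45037 probe sets and 42 of the 18193 genes of the array, that is 18 MMP, 15 ADAMTS, 5 ADAMTS-like and 4 TIMP genes. RNA came from cochlear sensory epithelia (CSE) of Swiss Webster mice, at P3 and at 8 weeks in the adult, with no treatment or engineered allele in either group. Each stage had 3 pools from separate dissections, each of 20 mice and hybridized to 1 array. The otic capsule, modiolus, spiral ligament and stria vascularis had been dissected away. The P3 CSE still held the greater and lesser epithelial ridges, of which the greater recedes later, whereas the adult CSE held the inner sulcus and the interdental cells of the limbus. A pool is bulk tissue, so fewer cells of a type and less RNA per cell cannot be told apart.

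MMPs are zinc proteases that cut collagens, proteoglycans and cell surface proteins, and most are made as inactive precursors whose propeptide must be removed. ADAMTS proteases are secreted, bind to the matrix and include the enzymes that cut the large proteoglycans aggrecan and versican, while the ADAMTS-like proteins share their binding domains and lack the protease domain. TIMPs are small secreted proteins that block the active site of these enzymes. In the maturing cochlea the matrix around the sensory epithelium includes the basilar membrane and the spiral limbus.

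The deposited values were MAS5.0 signal intensities. An array's background level, set on 80 probe sets for chemosensory receptors, lay between 6.45 and 33.7, and 48.0% to 67.6% of the probe sets lay above it. P3 replicate 1 had the highest background and a 3′ to 5′ ratio of 82.0 for Gapdh, against 0.707 to 2.07 on the other 5 arrays. Of 16 hair cell markers 13 had a probe set assigned to 1 gene only, 11 passed the filter described next, and 0 were called. Their median log2 fold change, adult minus P3, was -0.42. Atoh1 and Chrna9 gave -2.73 and -2.22, with all adult arrays below all P3 arrays, and Strc gave 1.67, with overlap. The summed signal of the 11 was 662 to 843 at P3 and 527 to 752 in the adult, of which Myo6 gave 141 to 353 and 186 to 418. Slc26a5, the motor protein of outer hair cells, was above background on 0 of 6 arrays. Of 13 supporting cell markers, all tested, 4 were called for P3 and 1, Gjb6, for the adult.

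Among these genes, several MMP and ADAMTS proteases were higher at P3, and no TIMP was called in either direction. Of the 78 probe sets, 55 of 31 genes exceeded the background on 3 or more of the 6 arrays and were tested with limma across all 28897 such probe sets of the array. A probe set was called when its adjusted p was under 0.05 and the stages differed by at least 2-fold. By this rule 11 member probe sets of 9 genes were called higher at P3, which is 20.0% of those tested, where 3.9% of all tested probe sets were called higher at P3. Of the 11, 6 were MMP and 5 ADAMTS probe sets. In the adult CSE, where 3.4% of all tested probe sets were called higher, limma called 0 members. At an unadjusted p under 0.05 limma gave 20 members at P3 (11.9% of all tested probe sets) and 8 in the adult (11.8%). SAM, the test named in the study's methods, was run here on log2 signals after the same background filter. It called 15 at P3 (4.39% of all) and 3 in the adult (5.4% of all), namely Mmp8, Adamtsl5 and a dimmer probe set of Timp4. The authors filtered on detection calls instead, so these counts are not theirs. An exact permutation over the arrays cannot give a p smaller than 0.1 with 3 per stage.

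Over all 78 probe sets, tested or not, the 3 arrays of a stage lay wholly above those of the other stage at P3 for 26 (11.8% of all probe sets of the array) and in the adult for 8 (11.8%). The median log2 fold change, given throughout as adult minus P3, was -1.23 for the MMPs, -1.10 for the ADAMTS proteases, 0.25 for the ADAMTS-like proteins and 0.55 for the TIMPs, beside 0.01 for all probe sets of the array. These medians include probe sets near background. With every signal raised to at least the background level of its array they were -0.83, -0.23, -0.10 and 0.55, so that of the ADAMTS-like proteins turned in sign. Of the 78 probe sets, 34 were above background on all 6 arrays and 14 on none.

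**Figure D1:**
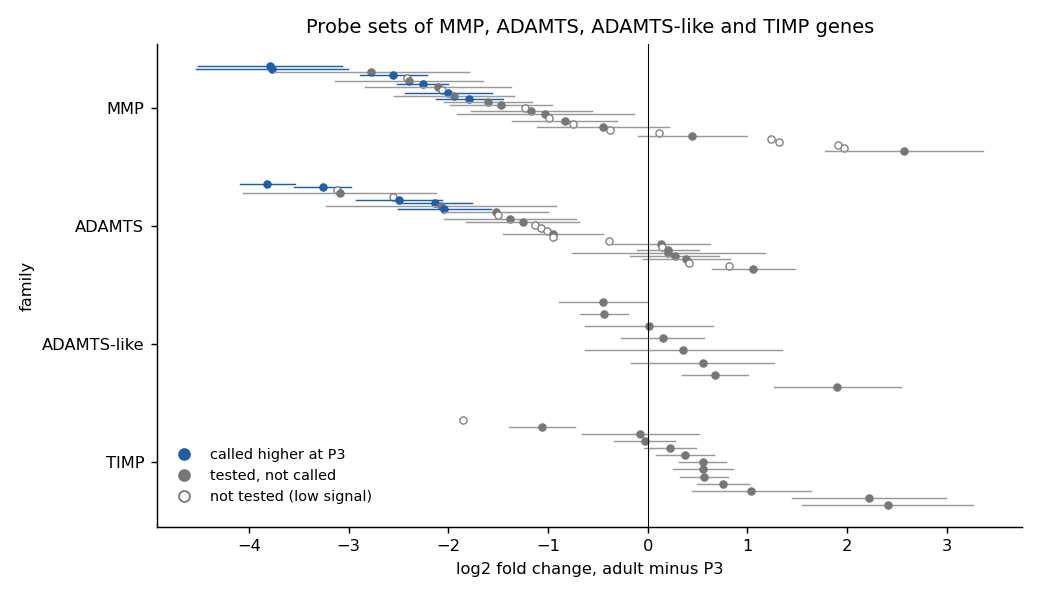
Horizontal positions give the log2 fold change (adult minus P3) of each of the 78 probe sets, 1 point per probe set, by family, with bars of 1 limma standard error where tested. The 11 blue points, all left of 0, were called higher at P3, grey points were tested and not called, and open points were not tested because of low signal.

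The promoters of the MMP genes on chromosome 9 and those of the other members differed in their letters, and examples of each are shown because most of the former genes did not pass the filter on low signals and none of the called members is among them. RefSeq promoter sequences of build GRCm38.p6 could be matched for 27 of the 42 genes. Mmp1a, Mmp1b, Mmp3, Mmp7, Mmp8, Mmp10, Mmp12, Mmp13 and Mmp20 lie side by side on chromosome 9, with no protein-coding gene other than MMP genes between them. Of these 9 genes only Mmp8 and Mmp13 passed the filter on low signals. The 9 genes had 11 promoters, since some had more than 1. Within 250 bases before the start, 7 of the 11, of 7 genes, held TGAGTCA on either strand, as did 4.46% of all 32817 promoters of the table. These letters are bound by the AP-1 factors Fos and Jun. The TATA box letters TATAAA were found in 7 of the 11, against 12.4% of all promoters, and the GC box GGGCGG in 0, against 32.7%. The 18 other member genes with a promoter had 19, of which 0 held TGAGTCA, 2 held TATAAA and 15 held GGGCGG. Bases G and C made up 37.2% to 53.2% of the chromosome 9 promoters and 53.6% to 80.0% of the others, with a median of 52.4% over the whole table. A match is a stretch of letters and no measured binding.

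For the chromosome 9 group, the promoters of Mmp3 (chr9:7445572-7445821, plus strand), Mmp10 (chr9:7502092-7502341, plus strand) and Mmp13 (chr9:7272264-7272513, plus strand) are printed 5′ to 3′, ending at the base before the start. Capitals mark the AP-1 letters, read on the other strand as TGACTCA in Mmp13, and then the TATA letters. The AP-1 letters begin 46, 63 and 35 bases before the start in Mmp3, Mmp10 and Mmp13.
Mmp3: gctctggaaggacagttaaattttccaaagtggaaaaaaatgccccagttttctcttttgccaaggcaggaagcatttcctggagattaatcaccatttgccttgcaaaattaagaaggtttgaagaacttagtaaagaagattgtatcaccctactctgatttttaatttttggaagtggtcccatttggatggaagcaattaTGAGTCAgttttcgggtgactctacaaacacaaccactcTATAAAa
Mmp10: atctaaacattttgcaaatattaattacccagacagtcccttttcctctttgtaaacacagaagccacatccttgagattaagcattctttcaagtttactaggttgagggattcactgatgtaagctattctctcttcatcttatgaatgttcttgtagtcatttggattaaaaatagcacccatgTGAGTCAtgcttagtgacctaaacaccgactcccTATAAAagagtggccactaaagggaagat
Mmp13: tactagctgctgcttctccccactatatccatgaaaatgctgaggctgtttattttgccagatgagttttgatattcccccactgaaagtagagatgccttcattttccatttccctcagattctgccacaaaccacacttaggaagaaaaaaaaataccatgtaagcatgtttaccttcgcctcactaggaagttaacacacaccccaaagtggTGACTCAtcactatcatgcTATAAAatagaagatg

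For the members called higher at P3, the promoters of Mmp11 (chr10:75932503-75932752), Adamts9 (chr6:92943535-92943784) and Adamts20 (chr15:94404351-94404600), all on the minus strand and printed as transcribed, are shown beside them. Capitals mark the GC box, which reads CCGCCC on the other strand. Of the 9 called genes 6 had a promoter in the table, of which 4 held a GC box and 0 held either of the other motifs. Adamts20 has 3 GC boxes, of which the nearest begins 48 bases before the start, Mmp11 has 2 and Adamts9 has 1.
Mmp11: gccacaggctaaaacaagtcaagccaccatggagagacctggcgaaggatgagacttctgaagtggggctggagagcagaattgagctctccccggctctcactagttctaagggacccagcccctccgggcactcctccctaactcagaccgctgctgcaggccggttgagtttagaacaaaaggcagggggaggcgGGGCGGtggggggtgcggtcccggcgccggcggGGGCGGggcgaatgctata
Adamts9: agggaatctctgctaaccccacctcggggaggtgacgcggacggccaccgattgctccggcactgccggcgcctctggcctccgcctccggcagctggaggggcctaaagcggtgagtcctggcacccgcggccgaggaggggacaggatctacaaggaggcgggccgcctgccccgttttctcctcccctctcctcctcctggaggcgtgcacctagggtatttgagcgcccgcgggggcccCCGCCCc
Adamts20: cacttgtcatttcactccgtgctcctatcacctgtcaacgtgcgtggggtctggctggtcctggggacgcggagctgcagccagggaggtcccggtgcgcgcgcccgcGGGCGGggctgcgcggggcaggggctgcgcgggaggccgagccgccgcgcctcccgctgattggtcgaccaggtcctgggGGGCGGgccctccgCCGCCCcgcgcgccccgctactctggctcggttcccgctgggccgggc

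Among the gelatinases, which cut denatured collagen and the collagen IV of basement membranes, Mmp2 fell between P3 and the adult. Its brightest probe set, 1439364_a_at, gave signals of 3950, 1840 and 2040 on P3 replicates 1, 2 and 3 and of 407, 335 and 538 on the adult arrays. All P3 arrays lay above all adult arrays, and the other probe set, 1416136_at, gave the same order, with 1780 to 2230 at P3 and 332 to 563 in the adult. The log2 fold change was -2.55 (limma SE 0.34, adjusted p = 0.00453) for the first and -2.26 (SE 0.26, adjusted p = 0.00252) for the second. Both calls held whichever array was left out. Mmp2 is made by fibroblasts and other mesenchymal cells. The summed signal of 12 markers of such cells, all tested, was 18800 to 39300 at P3 and 10400 to 12300 in the adult, with Col3a1 called for P3 and Thy1 for the adult. The call of Thy1 was lost in 4 of the 6 fits with 1 array left out. Its part in the result was not tested.

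Mmp9, the gelatinase of osteoclasts and neutrophils, was not called at either of its probe sets. The brighter probe set, 1416298_at, read 600, 147 and 154 at P3 and 62.9, 108 and 35.4 in the adult, a log2 fold change of -1.94 (limma SE 0.60, adjusted p = 0.0891) that was -1.28 (adjusted p = 0.109) without P3 replicate 1. The other, 1448291_at, read 98.1, 74.4 and 79.3 at P3 and 7.81, 59.1 and 8.66 in the adult. In both, the stages did not overlap and adult replicate 2 was the highest adult array. Without adult replicate 2 the second probe set was called, with a log2 fold change of -3.34 (adjusted p = 0.0102) in place of -2.39 (adjusted p = 0.0905). The adult signals left in that fit, 7.81 and 8.66, lay under the background levels of their arrays, 16.5 and 8.85.

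The collagenases open the triple helix of fibrillar collagen, and those that could be tested moved in opposite directions without being called. Mmp13, which is made in hypertrophic cartilage and growing bone, read 369, 85.8 and 119 at P3 and 12.5, 121 and 7.85 in the adult. Adult replicate 2 lay inside the P3 range, and the other adult arrays lay far below it and under background. The log2 fold change was -2.77 (limma SE 0.98, adjusted p = 0.130), and it was -3.97 (adjusted p = 0.0197) without adult replicate 2. On leaving out P3 replicate 1 or adult replicate 3 it was smaller, at -2.15 and -2.00 (adjusted p = 0.220 and 0.388). Mmp8, the collagenase stored in neutrophil granules, read 21.9, 6.28 and 5.91 at P3, above background on 0 of 3 arrays, and 44.6, 150 and 25.5 in the adult. Every adult array lay above every P3 array, by at least 4.38-fold between the geometric means when the P3 signals are raised to background. Its log2 fold change was 2.57 (limma SE 0.79, adjusted p = 0.0891), and without P3 replicate 1 it was 3.19 (adjusted p = 0.0335). It was 1.86 (adjusted p = 0.229) without adult replicate 2. Mmp1a and Mmp1b were above background on none of the 6 arrays.

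Adult replicate 2, which had the highest adult signals of Mmp8, Mmp9 and Mmp13, also had the highest adult marker sums of granulocytes, osteoclasts, macrophages, chondrocytes, osteoblasts and osteocytes, and erythroid cells. The chondrocyte sums on adult replicates 2 and 3 were close, at 9080 and 8680. Cnmd alone gave 5380 and 4710 of these, and their order rested on it. Mmp8, Mmp9 and Mmp13 were chosen for this comparison after their values had been seen. The 14 granulocyte markers tested summed to 148 to 509 at P3 and to 8900, 19400 and 4320 on adult replicates 1, 2 and 3, and 11 of them were called higher in the adult. The largest changes were those of Chil3, Lcn2 and Prg2, and S100a8, a calcium-binding protein of neutrophils, read 42.0 to 107 at P3 and 1590 to 5960 in the adult. The 7 osteoclast markers tested summed to 861 to 1530 at P3 and to 176, 520 and 239 in the adult. Of these Ctsk, the collagen-cutting cathepsin of osteoclasts, fell by a log2 change of 2.81 (limma SE 0.45, adjusted p = 0.00937), a call lost without adult replicate 3, and 4 were called higher at P3 without adult replicate 2. Of the markers that define osteoclasts more narrowly, Oscar, Ocstamp and Calcr were above background on 1, 1 and 0 of 6 arrays. Dcstamp was above background on 2 P3 arrays and 1 adult array, and Atp6v0d2 on 3 and 1. Both were lower in the adult without being called (log2 fold change -1.11 and -3.08, limma adjusted p = 0.550 and 0.116). Of 8 tested markers of osteoblasts and osteocytes the osteocyte genes Dmp1, Sost and Mepe were called higher in the adult, Dmp1 in only 1 and Sost in 4 of the 6 fits with 1 array left out. Col1a1, Sp7 and Ibsp gave log2 fold changes of -1.71, -0.52 and -0.04, and Alpl and Phex 0.78 and 0.54, none called with all 6 arrays. The median of this list was 0.66, and its sum was 1090 to 2740 at P3 and 3110, 3450 and 1890 in the adult. The part of these cells in the signals of the 3 MMPs was not tested.

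**Figure D2:**
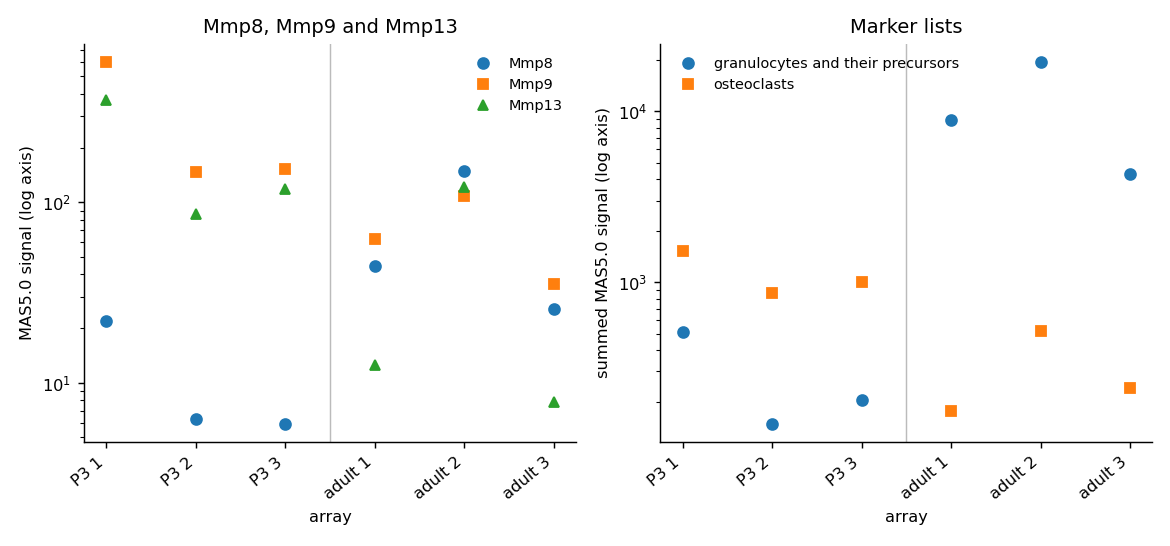
Signal of Mmp8, Mmp9 and Mmp13 at the brightest probe set (left) and summed signal of the tested granulocyte and osteoclast markers (right) on each of the 6 arrays, on log axes. Adult replicate 2 has the highest adult value of all 5 series, with 150 for Mmp8 and 19400 for the granulocyte sum.

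Of the stromelysins and the related small MMPs, Mmp11 was the only gene that passed the filter, and it fell. Mmp11, a stromelysin of stromal cells that is activated by furin inside the cell, read 164, 128 and 147 at P3 and 34.1, 34.3 and 63.9 in the adult. The stages did not overlap, and adult replicate 3 was the highest adult array. The log2 fold change was -1.79 (limma SE 0.33, adjusted p = 0.0167). Leaving out P3 replicate 2 or 3 ended the call (adjusted p = 0.0530 and 0.0687). Mmp3, Mmp7, Mmp10 and Mmp12 were above background on 2, 1, 1 and 1 of the 6 arrays, all of them adult, and were not tested.

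Among the membrane-type MMPs, which are anchored at the cell surface, Mmp16 fell. It cuts collagen III and activates pro-Mmp2. Its brightest probe set, 1437568_at, read 128, 105 and 112 at P3 and 16.0, 2.39 and 15.0 in the adult, where it was above background on 1 of 3 arrays. The adult arrays lay far below the P3 arrays, and adult replicate 2 lay lowest. The log2 fold change was -3.79 (limma SE 0.72, adjusted p = 0.0181), and -2.88 without adult replicate 2. It was not called when P3 replicate 2 or 3 was left out (adjusted p = 0.0544 and 0.0614). A second probe set, 1422626_at, was also called (log2 fold change -2.00, SE 0.43, adjusted p = 0.0291), with signals of 63.0 to 83.5 at P3 and 12.2 to 27.7 in the adult. It lost its call when replicate 2 or 3 of either stage was left out, with an adjusted p of 0.0653 to 0.120. Probe set 1440161_at was not called (-1.47, adjusted p = 0.125), and 1443412_s_at was too dim to be tested.

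Mmp14, the membrane-type collagenase that activates pro-Mmp2 together with Timp2, was not called at its 3 probe sets. The brightest, 1448383_at, read 2770, 883 and 1210 at P3 and 417, 357 and 714 in the adult. The stages did not overlap, and the log2 fold change was -1.60 (limma SE 0.44, adjusted p = 0.0642). P3 replicate 1 was the highest array at this probe set and the lowest P3 array at the other 2, which gave -0.83 and -1.17. Without that array, 1440920_at was called, at -1.94 (adjusted p = 0.0151), while 1448383_at gave -1.13 (adjusted p = 0.0683). Mmp17 read 85.9, 9.49 and 18.9 at P3 and gave -1.03 (adjusted p = 0.532), but -0.13 when the high first array was dropped. The probe sets of Mmp24 that were tested, 1417678_at and 1448806_at, gave -0.45 and 0.45 and neither was called. P3 replicate 1 was the highest P3 array at both, and without it they gave 0.19 and 0.80, no longer opposite in sign.

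Mmp23, which lacks the usual hemopexin domain and is released from the membrane when its propeptide is cut, fell at its brightest probe set. This probe set, 1417281_a_at, read 49.8, 25.5 and 20.8 at P3 and 1.73, 2.25 and 2.71 in the adult, and was above background on all 3 P3 arrays and on 0 adult arrays. The fold was at least 2.70 against the background level, and the fitted log2 fold change was -3.76 (limma SE 0.76, adjusted p = 0.0228). With signals floored at background the change was -1.43 and was not called (adjusted p = 0.163). Leaving out P3 replicate 2, P3 replicate 3 or adult replicate 3 also ended the call (adjusted p = 0.108, 0.0882 and 0.0709). The other probe set, 1417282_at, read 23.6 to 31.0 at P3 and 2.43 to 11.0 in the adult and was not called (-2.10, adjusted p = 0.124, or -1.43 without adult replicate 1). Mmp19 and Mmp20 were above background on none of the arrays.

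Of the ADAMTS proteases that cut proteoglycans, Adamts9, Adamts20 and Adamts15 fell and Adamts1, Adamts4 and Adamts5 were not called. Adamts9, a versican protease needed in many developing tissues, read 268, 339 and 298 at P3 and 33.6, 38.4 and 23.8 in the adult at its brightest probe set, 1437785_at. Both stages were tight and far apart, with 302 ± 35.7 at P3 and 31.9 ± 7.43 in the adult (SD, n = 3 arrays). The log2 fold change was -3.26 (limma SE 0.28, adjusted p = 0.000974), and the call held whichever array was left out. The 2 dimmer probe sets gave -1.52 and -1.38 and were not called (adjusted p = 0.121 and 0.247), the latter, 1431399_at, with -0.77 on leaving out P3 replicate 1.

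Adamts20, the closest relative of Adamts9 and a versican protease of the skin and palate, read 90.5, 57.8 and 85.7 at P3 and 16.0, 9.27 and 16.9 in the adult. No adult array reached the P3 range, and the log2 fold change was -2.50 (limma SE 0.43, adjusted p = 0.0126), with an adjusted p of 0.0696 without P3 replicate 3. Adamts15, which also cuts versican, read 69.1, 105 and 81.9 at P3 and 21.1, 15.1 and 22.3 in the adult. Its stages did not overlap either, and the log2 fold change was -2.13 (limma SE 0.37, adjusted p = 0.0127). That call was lost on leaving out replicate 2 or 3 of P3 or replicate 3 of the adult, at an adjusted p of 0.0827, 0.0632 and 0.0537. Adamts1 had a log2 fold change of 0.20, the 2 probe sets of Adamts4 gave -0.95 and -2.08, the latter with -3.21 to -1.36 as single arrays were left out, and the 3 tested of Adamts5 gave 0.27 to 1.06. Of these Adamts5 1456404_at had the smallest adjusted p, 0.169. Adamts8 was above background on 1 array.

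Adamts12, which cuts cartilage oligomeric matrix protein, had the largest fitted change of the members tested. It read 283, 374 and 459 at P3 and 25.6, 25.5 and 26.7 in the adult, or 372 ± 88.2 and 25.9 ± 0.646 (SD, n = 3 arrays). The adult arrays were nearly equal and all above background, and the log2 fold change was -3.81 (limma SE 0.27, adjusted p = 0.000503). Leaving out any array in turn kept the call. Adamts7, the related protease of the same substrate, read 84.8, 38.2 and 64.9 at P3 and 17.7, 1.31 and 14.7 in the adult. The stages did not overlap, but adult replicate 2 lay far below the other adult arrays and the log2 fold change of -3.09 (SE 0.97) was not called (limma adjusted p = 0.0940). It was -1.88 (adjusted p = 0.0735) without that array and -3.76 (adjusted p = 0.0858) without adult replicate 1. With signals floored at background it was -2.15 and was called (adjusted p = 0.0176). The summed signal of 9 tested chondrocyte markers was 14600 to 36400 at P3 and 5390 to 9080 in the adult. Of these Col2a1, Col9a1 and Matn1 were called for P3 and Ucma for the adult, and Col10a1 and Matn3 were above background on none of the arrays. The part of cartilage cells in the change of Adamts12 was not tested.

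Adamts3, which removes the amino-terminal propeptide of procollagen II and processes VEGF-C, read 88.9, 59.2 and 52.7 at P3 and 18.5, 9.73 and 22.1 in the adult. The stages did not overlap, and the log2 fold change was -2.04 (limma SE 0.47, adjusted p = 0.0346). This was the least stable of the calls, since it was lost without P3 replicate 2 or 3 or any of the adult arrays (adjusted p of 0.0629 to 0.112). Of the remaining ADAMTS genes, Adamts6 gave -1.26 and Adamts10 0.13, and Adamts18 and Adamts19 were not tested. Adamts16 had probe sets that disagreed. Probe set 1439604_at read 32.7, 59.0 and 35.9 at P3 and 4.35 to 5.04 in the adult but was above background on only 2 arrays, whereas 1441841_at gave a log2 fold change of 0.21 (adjusted p = 0.923). The latter read 80.0 on P3 replicate 1 and under 10 on its fellow P3 arrays, and without replicate 1 the change was 1.37 (adjusted p = 0.173).

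**Figure D3:**
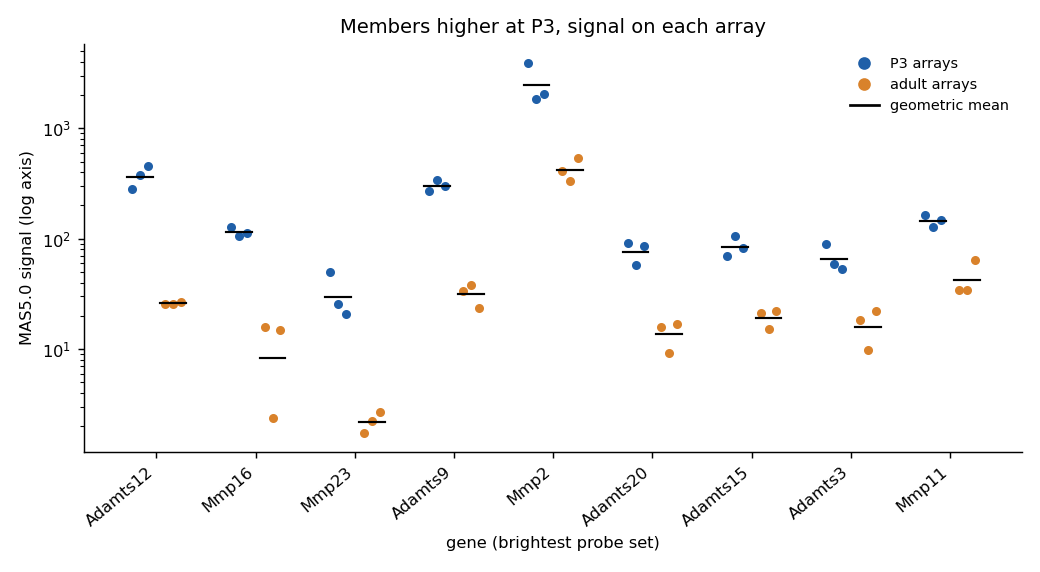
Signal on each array (log axis) of the 9 member genes called higher at P3, at their brightest probe set, in order of log2 fold change. Blue points are the 3 P3 arrays and orange points the 3 adult arrays, with black lines at the geometric means, and in each gene all blue points lie above all orange points.

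None of the 8 ADAMTS-like probe sets, all of which passed the filter, was called by limma. At an unadjusted p under 0.05 there was 1, higher in the adult (11.8% of all tested), and SAM called the same number (5.4% of all). Their log2 fold changes ran from -0.45 to 1.90. The highest was Adamtsl5 1438266_at, which read 24.3, 8.09 and 7.19 at P3 and 61.1, 24.9 and 48.4 in the adult. The stages did not overlap, though P3 replicate 1 and adult replicate 2 nearly met. Its adjusted p was 0.113 (limma, SE 0.64), and without P3 replicate 1 the change was 2.46 and was called (adjusted p = 0.0234). The other probe set of Adamtsl5 gave 0.55 (adjusted p = 0.689). The probe sets of Adamtsl1 gave -0.45, 0.15 and -0.44, and Adamtsl2, Adamtsl3 and Adamtsl4 gave 0.36, 0.67 and 0.01. For Adamtsl2 leaving out 1 array moved the value to between -0.36 and 1.30, and it was never called.

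None of the 12 TIMP probe sets tested was called in either direction, by limma under the rule used throughout. At an unadjusted p under 0.05 there was 1 for P3 (11.9% of all tested probe sets) and 5 for the adult (11.8% of all), and SAM called 1, in the adult (5.4% of all). Timp1, the inducible inhibitor encoded on the X chromosome, read 147, 96.7 and 120 at P3 and 57.2, 78.1 and 41.9 in the adult. Its stages did not overlap, and the log2 fold change was -1.06 (limma SE 0.33, 95% interval -1.81 to -0.31, adjusted p = 0.0902).

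Timp2, which blocks Mmp2 and also helps Mmp14 to activate it, read 1430, 1270 and 1410 at P3 and 1210, 1670 and 2030 in the adult at its brightest probe set, 1454677_at. The stages overlapped, and the log2 fold change was 0.22 (limma SE 0.26, 95% interval -0.37 to 0.82, adjusted p = 0.648). The other 4 tested probe sets of Timp2 gave -0.03 to 1.04, and their stages overlapped too. The value of 1.04 came from 1420924_at, whose lowest array was P3 replicate 1, with a signal of 16.9 where the remaining 5 gave 73.0 to 113. It was 0.28 without that array. Probe set 1437081_at was above background on none of the arrays.

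Timp3, which binds to the matrix and is the main inhibitor of ADAMTS proteases, was higher on all adult arrays at 3 of its 4 probe sets without being called. The brightest, 1449335_at, read 1420, 1200 and 1150 at P3 and 2210, 1700 and 1690 in the adult, a log2 fold change of 0.56 (limma SE 0.24, 95% interval 0.02 to 1.10, adjusted p = 0.193). Probe sets 1419089_at and 1419088_at gave 0.55 and 0.75 (adjusted p = 0.199 and 0.124). The fourth, 1449334_at, overlapped between the stages and gave -0.07 (adjusted p = 0.956).

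Timp4, whose expression is restricted to few tissues, had the largest log2 changes of the inhibitors and the widest spread. Probe set 1423405_at read 42.8, 13.4 and 12.6 at P3 and 281, 39.7 and 65.8 in the adult, so that P3 replicate 1 lay just above the lowest adult array. The log2 fold change was 2.22 (limma SE 0.77, 95% interval 0.46 to 3.98, adjusted p = 0.123). The value rested partly on adult replicate 1, without which it was 1.40 (adjusted p = 0.305), and it was 2.81 (adjusted p = 0.0844) without adult replicate 2. Probe set 1450974_at read 3.55, 16.4 and 2.77 at P3 and 56.3, 20.3 and 20.9 in the adult. Its stages did not overlap, and the change was 2.41 (SE 0.86, adjusted p = 0.131), or 3.20 (adjusted p = 0.0952) without P3 replicate 2.

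**Figure D4:**
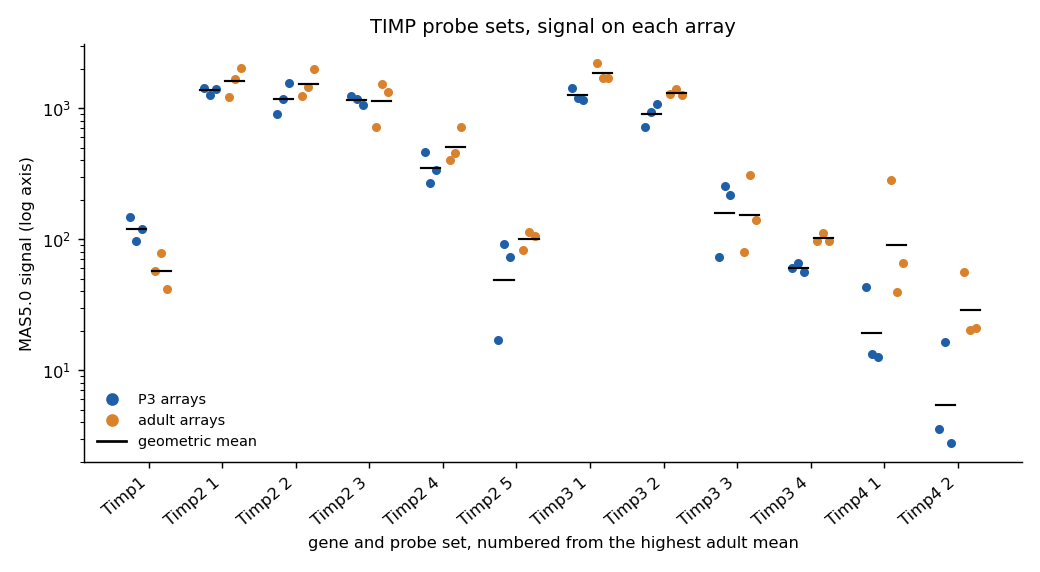
Signal on each array (log axis) of the 12 TIMP probe sets tested, numbered within a gene from the highest adult mean, with P3 arrays in blue, adult arrays in orange and black lines at the geometric means. The points of the stages overlap at all 5 Timp2 probe sets, while at 3 of 4 Timp3 probe sets the adult points lie above the P3 points.

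Genes that regulate, activate or serve as substrates of these enzymes were read from 5 lists, at the brightest probe set of each gene. Of 7 tested inhibitors and clearance receptors other than TIMPs, 1 was called higher at P3 and 1 in the adult (median log2 fold change 0.91, beside 0.04 over all tested probe sets). Spock1, a testican of the matrix, fell by a log2 change of 2.82 (limma SE 0.46, adjusted p = 0.00959). It read 384 to 792 at P3 and 48.7 to 157 in the adult, without overlap, and lost its call without adult replicate 3. A2m, the broad protease trap alpha-macroglobulin, rose from between 256 and 352 at P3 to between 665 and 1490 in the adult (log2 change 1.82, SE 0.33, adjusted p = 0.0156), and it lost its call without P3 replicate 3 or adult replicate 3. Reck, the membrane-anchored inhibitor of Mmp2, Mmp9 and Mmp14, read 550, 401 and 467 at P3 and 228, 241 and 246 in the adult. Its adjusted p was 0.0292, and its fold of 1.97 stayed under the 2 that a call needed.

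Of the activators, the convertase Pcsk5, which removes propeptides in the secretory pathway, fell from between 321 and 574 at P3 to between 67.0 and 121 in the adult (log2 fold change -2.43, SE 0.32, limma adjusted p = 0.00463). It was the only convertase of 4 tested to be called. Furin, the convertase of Mmp11 and Mmp14, gave -0.04 (SE 0.23, adjusted p = 0.942), and its stages overlapped, with 170 to 231 at P3 and 167 to 213 in the adult. Of the plasminogen system 2 of 6 annotated genes could be tested, and Plat, tissue plasminogen activator, was called higher at P3 at a log2 fold change of -1.10 (SE 0.21, adjusted p = 0.0185). That call was lost on leaving out replicate 2 or 3 of P3 or replicate 3 of the adult.

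Of 7 tested proteoglycans and link proteins that bind hyaluronan, 1 was called for each stage. Vcan, which encodes versican, read 87.3, 136 and 147 at P3 and 19.2, 15.6 and 5.94 in the adult. Its stages were far apart, with a log2 fold change of -3.31 (limma SE 0.52, adjusted p = 0.00822). Acan, the aggrecan gene, read 101, 32.4 and 46.8 at P3 and 235, 91.7 and 170 in the adult. Its stages overlapped by 1 P3 array and it was not called (1.53, adjusted p = 0.101), although it was called without P3 replicate 1. Hapln4, a link protein of perineuronal matrix, rose from between 2.71 and 8.64 at P3 to between 65.0 and 310 in the adult (log2 fold change 4.83, SE 0.69, adjusted p = 0.00588). Hapln4 was above background on only 1 of 3 P3 arrays, so the size of its change depends on values near background. The 10 neuron markers tested summed to 4750 to 5480 at P3 and to 8460 to 23900 in the adult, with Snap25 and Nefh called for the adult and Gap43, a growth cone protein, for P3. Nefh and Gap43 lost their calls without adult replicate 3. The part of neurons in this value was not tested.

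Of 13 tested proteases of the wider metzincin group, such as the ADAM, tolloid and pappalysin families, 2 were called higher at P3 (median 0.07). They were Pappa2, which cuts insulin-like growth factor binding proteins (-3.59, SE 0.39, limma adjusted p = 0.00212), and Adam19, a membrane-anchored sheddase (-2.26, SE 0.32, adjusted p = 0.00593). Leaving out any array in turn kept both calls. The highest value of the 13 was that of Adam23, at 1.96 (adjusted p = 0.0754).

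**Figure D5:**
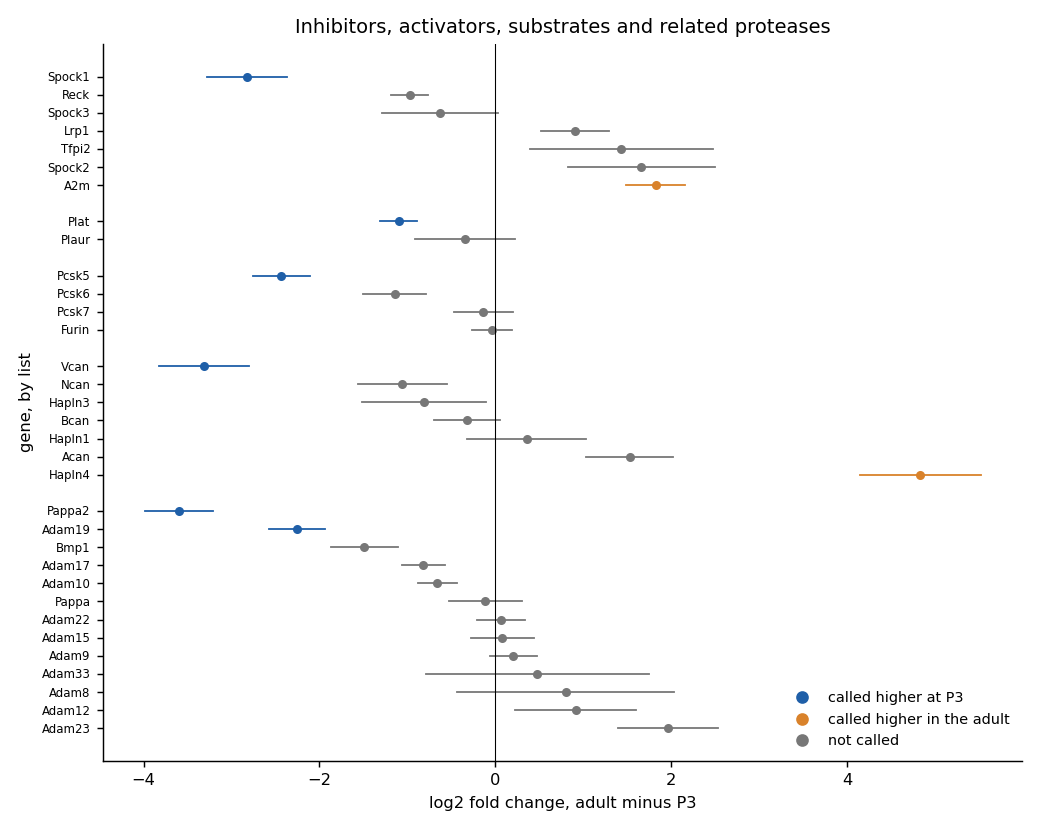
Horizontal positions give the log2 fold change (adult minus P3), with bars of 1 limma standard error for the tested genes of 5 lists, from top to bottom other inhibitors, plasminogen activation, propeptide convertases, hyaluronan-binding proteoglycans and related proteases. Blue genes were called higher at P3, orange genes (A2m and Hapln4) higher in the adult, and grey genes were not called.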

How the data were processed

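RNA from 3 P3 and 3 adult pools of CSE was amplified and hybridized by the authors to Affymetrix Mouse Genome arrays. The deposited values are linear MAS5.0 signal intensities, which the authors scaled on each array; the submitters' processing notes name GCOS 1.2. Stage and replicate came from the sample titles. Detection calls were not used here. With a 2016 annotation, 1 gene was named by 34945 probe sets, several by 932 and no gene by 9160.

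The background of an array was the 90th percentile of its signals over 80 probe sets of chemosensory receptor genes. The 28897 probe sets that exceeded it on 3 or more of 6 arrays were fitted on log2 intensities without further normalization, with limma 3.58.1 in R 4.3.3 (lmFit, eBayes with trend, two-sided, Benjamini-Hochberg over all of them). A call needed an adjusted p under 0.05 and a difference of at least 2-fold. SE is limma's moderated standard error. A fold is given as a bound where no array of the lower stage exceeded background, as the ratio against the background level. A gene was read at its tested probe set of highest mean signal. On simulated data with independent normal noise, 200 probe sets of 28897 were given log2 changes of 2 or 3 in either direction. Of all probe sets 71 were called, 70 of them changed. Most of the changed probe sets were thus missed, so the lack of a call does not show that a gene was unchanged. The simulation held no outlying array, so it does not give the rate of false calls in these data. The number of arrays limits the precision.

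Each TIMP and each member gene with a called probe set was given in full, and other members by single values. Of each list up to 4 called genes of largest change, genes called the other way and undetected defining markers could be named. Reck, Furin, Acan, Adam23, Dcstamp, Atp6v0d2, Myo6, Cnmd, Mmp8, Mmp9, Mmp13, Mmp14, Adamts7 and Adamtsl5 were picked out after their values were seen. So were the uncalled list genes Dct, Mlana, Atoh1, Chrna9, Strc, Col1a1, Sp7, Ibsp, Alpl and Phex. The members and the 18 lists (195 genes, 155 tested) were chosen with earlier results of these data known. Family medians cover all member probe sets, so that the setting with no filter is the value itself. Alternatives were quantile and median scaling, other filters, signals floored at or raised by background, no trend, a replicate block, each array left out, SAM with all 20 relabellings and the mean of a gene's probe sets. A median over tested probe sets and the list counts under each alternative were added after seeing the data. Python 3.11.15, pandas 2.3.3, numpy 2.4.6 and matplotlib 3.10.9 were used.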

Additional observations from a re-analysis of the deposited data

How the results depend on the processing

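The 11 member probe sets called higher at P3 were 8 to 15 under the planned settings with all 6 arrays, where 0.986% to 4.69% of all probe sets fitted were called for P3. They were 4 to 13 with each array left out (1.19% to 5% of all). Leaving out P3 replicates 2 and 3 gave 5 and 4, and leaving out adult replicate 3 gave 7. There 1.56%, 1.46% and 1.19% of all tested probe sets were called for P3, against 3.9% with all arrays. The 9 genes were 6 to 11 and, with each array left out, 3 to 9 (4 and 3 on leaving out P3 replicates 2 and 3). Adamts12, Adamts9 and Mmp2 kept their calls under all settings run. Of members higher in the adult, limma called 0. Quantile normalization called 1, Adamtsl5 (adjusted p = 0.0473), where 3.12% of all tested probe sets were called for the adult. SAM called 3 probe sets of 2 genes read at the brightest (5.4% of all). Leaving out arrays gave 0 to 2, with 2 without P3 replicate 1 (4.84% of all). Scaling to the same median lost Adamts15 and Mmp11 (adjusted p = 0.0602 and 0.0743) and Mmp16 1422626_at, dropping the trend lost Adamts3, Mmp11 and Mmp16 (0.0554, 0.0502 and 0.0548), and without a filter Adamts16 1439604_at was called at P3. Mmp14 was called with floored signals (0.0383).

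With the replicate number as a block, 13 member probe sets were called at P3 (4.56% of all tested) and 1 in the adult (1 gene, 4.6% of all tested). The additions were Adamts7, Mmp14 and Timp4 (adjusted p = 0.0370, 0.0418 and 0.0176). The deviations of same-numbered arrays correlated at 0.18, 0.21 and 0.08, each above those of other numbers, but the labels tie nothing to the numbers and they were not taken as pairs.

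Family medians depended on low signals. For the MMPs the median was -1.79 and -1.87 with probe sets above background on 4 and 3 arrays, -0.71 with the mean background added and -1.98 over gene means. For the ADAMTS proteases it was -0.23 floored, -0.36 with background added and -1.78 over gene means. For the ADAMTS-like proteins it was -0.10 floored, and for the TIMPs 0.44 over gene means. For all members it was -0.45 with either filter, -0.20 floored, -0.18 with background added and -1.06 over gene means. Leaving out arrays gave -1.72 to -1.19, -1.40 to -0.80, -0.18 to 0.59, 0.28 to 0.54 and -0.75 to -0.48 in the same order. Genes of the lists called at P3 numbered 18, and 12 to 23 over all settings, and those called in the adult 25, and 17 to 30. The cause of these shifts was not tested. Values near background have no firm order, and 23 probe sets were not tested.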

Other observations

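Markers of other cells near the epithelium were read beside the proteases. Of 12 tested macrophage markers, Lyz2, the lysozyme of myeloid cells, was called in the adult (log2 change 3.16) and Mrc1, the mannose receptor of resident macrophages, at P3 (-1.47, lost in 3 of the 6 fits with 1 array left out). The macrophage sum was 1710 to 2450 at P3 and 3050 to 4670 in the adult. It includes Lyz2, which read 141 to 161 at P3 and 876 to 2250 in the adult. The median log2 change of the 12 macrophage markers was 0.17. Of 3 tested erythroid markers Hemgn and Slc4a1 were called in the adult, the latter in only 1 of those 6 fits, with a sum of 48.1 to 118 at P3 and 175 to 828 in the adult, highest on adult replicate 2. Of 7 tested markers of the stria vascularis and its melanocytes, the sodium pump subunit Atp1b2 was called in the adult (2.17) and the melanosome protein Pmel at P3 (-2.66). The melanocyte genes Dct and Mlana went the other way from Pmel, higher on all adult arrays without being called (1.72 and 2.32, limma adjusted p = 0.0893 and 0.0972). Both were called without adult replicate 1. The median log2 change of these markers was 0.92, with a sum of 5320 to 7190 at P3 and 6620 to 16600 in the adult. The 12 endothelial and pericyte markers tested summed to 2460 to 4020 at P3 and 2670 to 4460 in the adult, and the 4 Schwann cell markers tested to 5830 to 10600 and 5220 to 19800. The median log2 change of these lists was -0.26 and 0.54.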
